A study of Mus musculus with 11 samples.

Results

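Striatal punches of mice given SPI-77 for 4 days were compared with those of mice given the DMSO vehicle, across genes and pathways. The members are the 3 SPI-77 and 4 DMSO libraries, chosen by their treatment label alone, which makes 7 of the 11 libraries of the series. All mice were BACHD mice, which carry the complete human mutant huntingtin gene on a bacterial artificial chromosome beside their own Htt gene, so treated and vehicle animals share the disease transgene and no library comes from a wild-type animal. SPI-77, SPI-24 or DMSO was injected under the skin on 4 days in a row, and the animals were killed 6 h after the last dose. Punches of striatum were taken for stranded poly(A) RNA sequencing. The remaining 4 libraries are of mice given SPI-24, a second compound of the same purpose. They enter the gene filter and the shared spread of the fit, and are otherwise used below to show where SPI-77 differs. The labels name each library a biological replicate and give no dose, sex or age, and the study used other doses for SPI-24 than for SPI-77 where it states them, so the compounds are not matched for dose.

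SPI-77 was selected as an inhibitor of the contact between Spt5 and RNA polymerase II. Spt5 and Spt4 form DSIF, a complex that travels with the polymerase, holds it near promoters together with NELF and, once phosphorylated, helps it through long genes. The striatum is the forebrain nucleus that loses most neurons in Huntington's disease. Its principal cells are medium spiny neurons, which receive cortical, thalamic and dopaminergic input.

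The reads recovered from the deposited values numbered 12.4, 15.1 and 10.2 M in SPI-77 libraries 1, 2 and 3 and 14.0, 16.5, 13.9 and 33.8 M in DMSO libraries 1 to 4. Levels are given as normalized counts, that is, reads divided by a scaling factor per library. The labelled tissue was checked against its markers. The summed normalized count of 9 medium spiny neuron markers lay between 3904 and 7167 in the SPI-77 libraries and between 21119 and 82723 in the DMSO libraries, while 3 cholinergic neuron markers summed to 9.33 to 48.2 with SPI-77 and to 254 to 619 with DMSO. In bulk tissue, fewer cells of a type and less RNA per cell cannot be told apart. The SPI-77 punches thus had less RNA of the markers that define the striatum than the DMSO punches. The differences below are between these libraries, and an action of the compound and the makeup of the punches were not tested apart. Of the 8 thalamic markers Gbx2 (2.46 on the log2 scale, adjusted p = 0.0497) and Calb2 (1.84, adjusted p = 0.0482) were called higher. Sums of marker lists for neighbouring or other cells are given for each group. Of 5 cortical excitatory markers, with 0 called, the sum was 29796 to 38394 with SPI-77 and 5707 to 29452 with DMSO. Of 8 thalamic markers it was 12477 to 15597 with SPI-77 and 2940 to 14984 with DMSO. The 5 mural cell markers summed to 3303 to 3665 with SPI-77 and to 1984 to 2789 with DMSO, with Acta2, Tagln and Myh11 called higher, while Rgs5 (0.07, adjusted p = 0.796) and Pdgfrb (0.04, adjusted p = 0.868) were not called. The 5 endothelial markers summed to 3627 to 4332 with SPI-77 and to 2448 to 3242 with DMSO, with 0 called and Slco1a4 at -0.23 (adjusted p = 0.431). The 5 astrocyte markers summed to 27788 to 32816 with SPI-77 and to 18055 to 22972 with DMSO, a sum made up largely of Gfap in the SPI-77 libraries, which was called higher (1.53, adjusted p = 0.0179), while another of the 5 was called lower and their median log2 fold change was -0.23. The 5 meningeal fibroblast markers summed to 885 to 1029.6 with SPI-77 and to 390.2 to 722 with DMSO, with Slc6a13 alone called higher (1.99, adjusted p = 0.0179). The sum of midbrain dopamine neuron markers was lower with SPI-77 (129 to 199) than with DMSO (264 to 305). Of these markers Th alone was called lower (-2.43, adjusted p = 0.0188). Ddc overlapped between the groups (-0.43, adjusted p = 0.218), and Slc6a3 was too low to be tested. The sum of ependymal markers was lower with SPI-77 (384 to 698) than with DMSO (1153 to 1589), with 0 of them called. Choroid plexus markers overlapped (32294 to 93123 with SPI-77, 72384 to 193210 with DMSO). Pan-neuronal, oligodendrocyte, microglia and red blood cell markers overlapped as well. The part of tissue makeup in the results below was not tested. Xist, expressed from the inactive X chromosome of females, was at most 7.70 normalized counts in the 3 SPI-77 libraries, DMSO 2 and DMSO 4, and stood at 3714 in DMSO 1 and 3511 in DMSO 3.

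SPI-77 libraries differed from DMSO libraries at many genes, and more of the large differences were decreases. Of 16768 genes tested with limma, 188 (1.12%) were called higher and 885 (5.28%) were called lower with SPI-77, where a call needed a 2-fold change and a p below 0.05 after Benjamini-Hochberg adjustment over all genes. This makes 1073 calls in either direction (6.40%), of which 17.5% were increases. Under quantile scaling, which forces all libraries to the same distribution, the split was 336 higher and 625 lower, or 35% increases. Without the fold limit, 1346 genes were higher and 1533 lower. The change reached 4-fold in 28 genes called higher and 184 genes called lower, and the median log2 fold change was 1.35 among the increases and -1.43 among the decreases. Over all genes the median log2 fold change was -0.01, 5th and 95th percentiles of -1.54 and 0.92 and a median standard error of 0.26. Protein-coding genes made up 147 of the increases and 837 of the decreases.

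The calls rest on few animals. All 3 SPI-77 libraries lay below all 4 DMSO libraries in 726 of the 885 genes called lower (15.3% of all genes tested had this pattern) and above them in 184 of the 188 genes called higher (17.2% of all genes). The smallest adjusted p was 0.0179, shared by many genes. When SPI-77 1, SPI-77 3, DMSO 2 or DMSO 4 was left out, limma called 0 genes, with smallest adjusted p-values of 0.0571, 0.0836, 0.0624 and 0.0536 and with 4284 to 4898 genes at an unadjusted p below 0.05. The sizes of the changes moved less, since 739 to 819 of the genes called lower still had a log2 fold change of -1 or below in those fits, and 142 to 177 of the genes called higher one of at least 1. DMSO 1 was the vehicle library nearest to SPI-77. It had the lowest DMSO value in 758 (85.6%) of the genes called lower, against 31.0% of all genes tested, and the highest DMSO value in 131 (69.7%) of the genes called higher, against 32.1% of all genes. Without DMSO 1, 396 genes were called higher and 1471 lower. Leaving out SPI-24 4, which enters only through the shared spread, gave 348 higher and 1219 lower. A filter and fit on the 7 SPI-77 and DMSO libraries alone gave 281 higher and 1111 lower. The spread of fold changes over expression levels is shown in the plot of fold change against mean level.

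**Figure D1:**
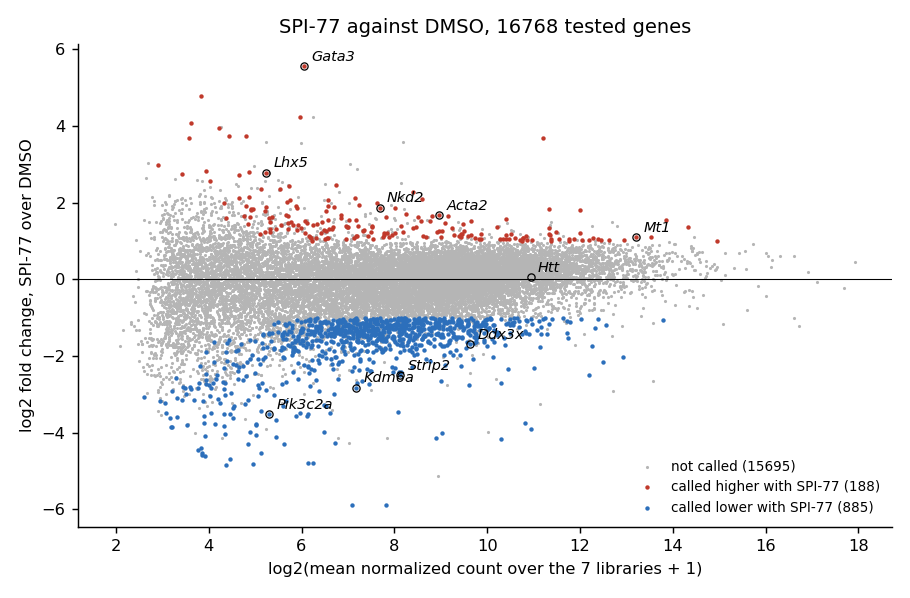
Log2 fold change of SPI-77 over DMSO (vertical) against the log2 of the mean normalized count over the 7 libraries plus 1 (horizontal), 1 point per tested gene, with the 188 genes called higher and the 885 called lower in colour and some named genes circled. Decreases outnumber increases among the called genes, and Htt lies near 0.

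Nkd2, Lcat, Acta2, metallothionein genes and complex I genes were among the firmest increases of abundant genes, by about 2-fold to 4-fold. The rule took the 12 genes with the smallest p among those called higher with a mean of at least 100 normalized counts. Nkd2, an antagonist of Wnt signalling that binds Dishevelled (chromosome 13, 73818534 to 73847631, GRCm38), had 521, 246 and 296 normalized counts with SPI-77 and 118, 103, 81.6 and 70.2 with DMSO (log2 fold change 1.87, SE 0.28, adjusted p = 0.0179). The lowest SPI-77 library was still more than the highest DMSO library, and the SPI-77 values were the more spread. Lcat, the plasma enzyme that esterifies cholesterol on lipoproteins (chromosome 8, 105939551 to 105943382), had 1363, 1331 and 1076 with SPI-77 and 696, 309.7, 508 and 321 with DMSO (1.53, SE 0.25), and the groups did not overlap. Rcn3, a calcium-binding protein of the endoplasmic reticulum, had 569, 409 and 532 with SPI-77 and 217, 149, 158 and 105 with DMSO (1.70, SE 0.30). Vwf, the clotting factor made by endothelial cells, had 578, 442 and 525 with SPI-77 and 249, 195, 227 and 150.2 with DMSO (1.34, SE 0.22). For both genes DMSO 4 was the lowest library. Fabp7, the brain fatty acid binding protein of astrocytes and their precursors, had 1047, 957 and 734 with SPI-77 and 401, 415, 531 and 303 with DMSO (1.16, SE 0.20), and Gfap was higher in the same libraries, a part in the result that was not tested. Tmem160 had 1652, 1625 and 2153 with SPI-77 and 973, 512, 799.7 and 612 with DMSO (1.35, SE 0.22). The other 6 are the smooth muscle actin gene Acta2, the metallothionein genes Mt1 and Mt2 and the complex I genes Ndufs6, Ndufa2 and Ndufb9, described with their groups. With trends on transcript length and GC removed, log2 fold changes fell below 2-fold for Mt1 (0.70), Mt2 (0.57), Tmem160 (0.70), Ndufs6 (0.69), Ndufa2 (0.52) and Ndufb9 (0.44). Nkd2, Acta2, Lcat, Rcn3, Vwf and Fabp7 stayed above 2-fold. In all 12 the groups were apart, a pattern that choice by smallest p favours (17.2% of all genes tested lay above DMSO in this way). The log2 fold changes ran from 1.01 to 1.87 with standard errors of 0.17 to 0.30. Against SPI-24, with the same SPI-77 libraries, 4 of the 12 were also called higher, against 0.340% of all genes tested. Outside that rule, and chosen after its values were seen, Tnnt1 had the largest fold change among the genes called higher with a mean of at least 100 normalized counts. This gene for slow skeletal troponin T had 3033, 5065 and 6085 with SPI-77 and 1106, 115, 954 and 126 with DMSO (3.68, SE 0.93, adjusted p = 0.0281), a wide spread within DMSO, where libraries 1 and 3 exceeded libraries 2 and 4. The SPI-24 libraries had 937, 2834, 4066 and 527 of Tnnt1, and it was not called against SPI-24 (1.55, adjusted p = 0.286).

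The firmest decreases among abundant genes, taken by the same rule, included the X-linked genes Kdm6a, Usp9x and Ddx3x. Kdm6a, the X-linked demethylase that removes methyl groups from lysine 27 of histone H3 (chromosome X, 18162575 to 18279936), had 25.3, 53.9 and 17.9 normalized counts with SPI-77 and 108, 236, 265 and 303 with DMSO, a 7.11-fold decrease (log2 fold change -2.83, SE 0.41, adjusted p = 0.0179). Every SPI-77 library was below DMSO 1, the lowest of its group. Usp9x, an X-linked ubiquitin protease (chromosome X, 13071498 to 13173328), had 95.9, 93.5 and 44.6 with SPI-77 and 214, 477, 335 and 536 with DMSO (-2.30, SE 0.35). Ddx3x, an X-linked RNA helicase of translation initiation (chromosome X, 13280970 to 13294052), had 288, 349.9 and 362 with SPI-77 and 568, 1215, 1267 and 1514 with DMSO (-1.69, SE 0.28). DMSO 1 was again the lowest vehicle library in both. Strip2, a subunit of phosphatase complexes of the STRIPAK type, had 58.6, 82.5 and 67.8 with SPI-77 and 178, 612, 417 and 537 with DMSO (-2.50, SE 0.39). Ranbp2, the large nucleoporin that binds Ran, had 156, 209 and 191 with SPI-77 and 370.0, 724, 536 and 1026 with DMSO (-1.75, SE 0.28). The highest vehicle values of these genes were in DMSO 2 and DMSO 4. Serinc5, a multipass membrane protein known as a restriction factor of retroviruses, had 202, 249.7 and 195 with SPI-77 and 381, 1199.8, 981 and 927 with DMSO (-1.90, SE 0.31). Pou3f3, a neural POU-domain transcription factor, had 481, 418 and 399.9 with SPI-77 and 688, 1211, 997 and 1151 with DMSO (-1.19, SE 0.18). The standard error of Pou3f3 was the smallest of the 12 decreases. The junction scaffold Tjp1 (-1.43, SE 0.24), the channel kinase Trpm7 (-1.59, SE 0.27), the engulfment receptor Megf10 (-1.50, SE 0.24), the PDZ-domain gene Pdzd2 (-1.57, SE 0.22) and Sowahc (-1.80, SE 0.29) complete the list. All 12 had groups apart, a pattern that choice by smallest p favours (15.3% of all genes tested lay below DMSO in this way). Against SPI-24, with the same SPI-77 libraries, 10 of the 12 were also called lower, against 2.45% of all genes tested. With trends on transcript length and GC removed, the log2 fold changes of the 12 ran from -2.22 to -0.87. The plot of normalized counts by library shows 6 genes of each direction.

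**Figure D2:**
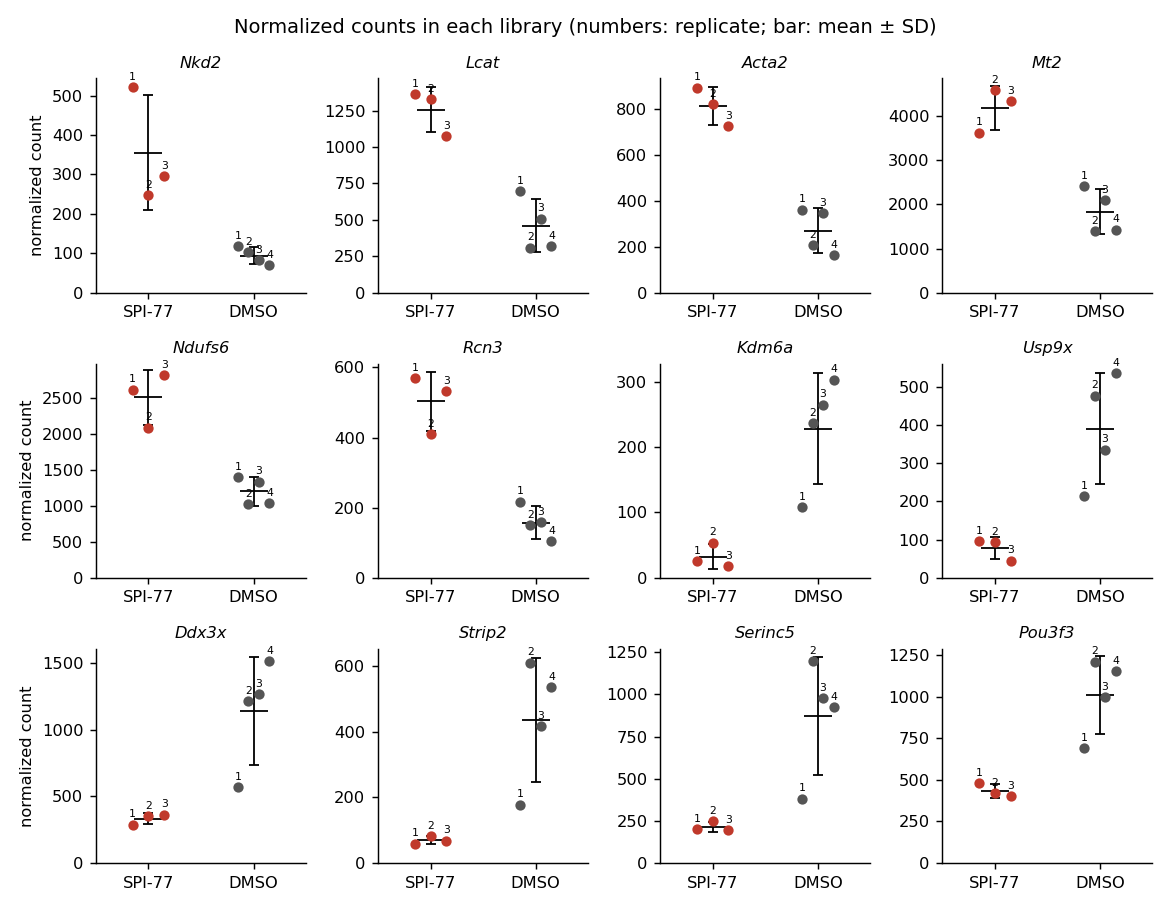
Normalized counts (vertical, linear from 0) of 12 genes in the 3 SPI-77 libraries (left in each panel) and the 4 DMSO libraries (right), points numbered by replicate, with the mean and SD. The genes were chosen by smallest p, and their groups do not overlap in any panel. DMSO 1 is the vehicle library closest to SPI-77 in the 6 genes that fell.

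Increases and decreases differed in transcript length and base composition. The median transcript length was 1406 nt for the genes called higher, 4594 nt for those called lower and 2983 nt for all genes tested, and the median GC content was 54.4%, 44.1% and 50.2% in the same order. Across the 10 deciles of transcript length, the median log2 fold change ran from 0.46 in the shortest (at most 1127 nt) to -0.41 in the longest (at least 6551 nt). In the shortest decile 4.48% of genes were called higher and 0.597% lower, and in the longest 0.179% higher and 12.7% lower. By GC content it ran from -0.66 in the poorest decile (at most 41.9%), where 16.5% were called lower, to 0.33 in the richest (at least 58.3%), where 0.896% were. With SPI-24 against the same DMSO libraries, the decile medians stayed between -0.05 and -0.01 by length and between -0.08 and 0.02 by GC. The medians varied with GC within each quartile of length. The longest and the GC-poorest quartiles shared 1473 genes with a median of -0.68, of which 298 were called lower, and the shortest and GC-richest quartiles shared 1392 genes with a median of 0.49, of which 51 were called higher. Across genes, which are not independent, the Spearman correlation of the log2 fold change was -0.35 with transcript length, 0.42 with GC content and -0.30 with genomic span (16746 to 16752 genes), and 0.04, 0.09 and 0.01 for SPI-24.

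**Figure D3:**
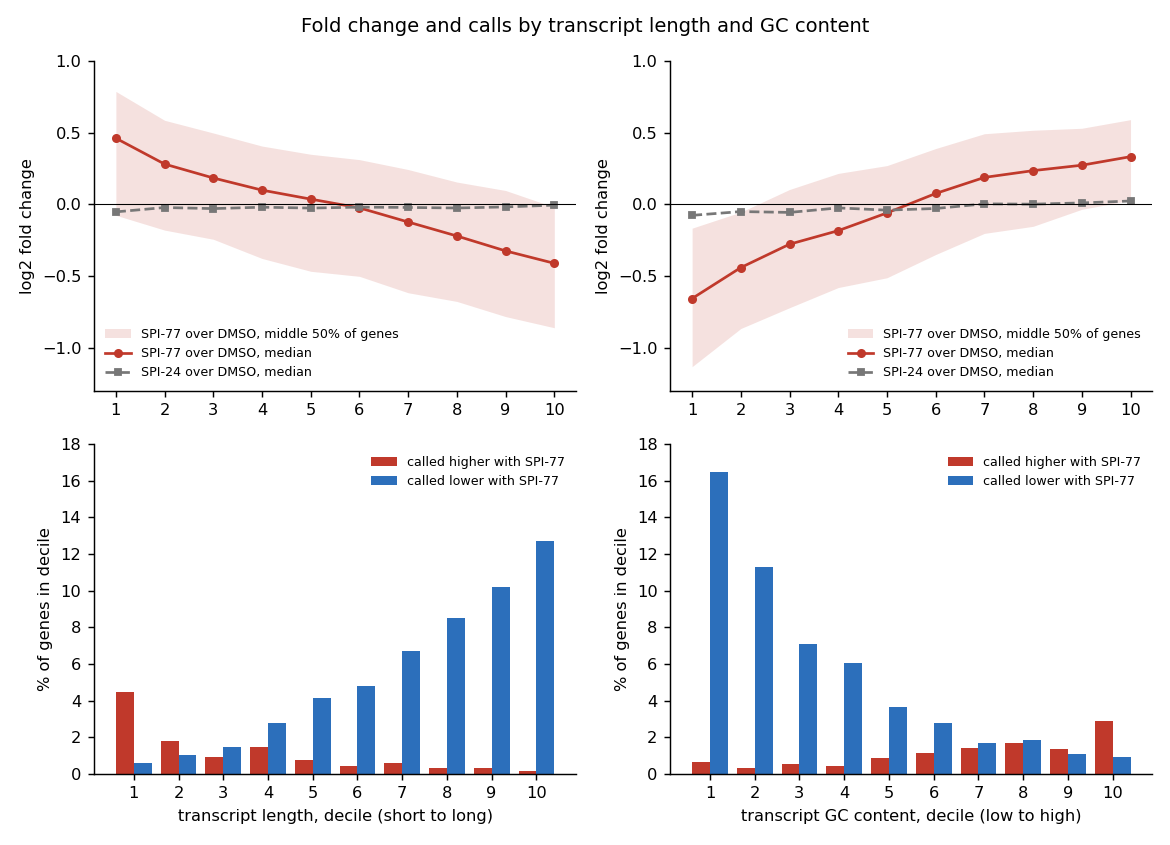
Top, median log2 fold change over DMSO in deciles of transcript length (left) and transcript GC content (right) for SPI-77 (with the middle 50% of genes shaded) and SPI-24 (dashed). Bottom, the percent of genes in each decile called higher or lower with SPI-77. The SPI-77 medians run from 0.46 to -0.41 with length and from -0.66 to 0.33 with GC, while those of SPI-24 stay near 0.

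The same contrast was read within each library as a score, the median log2 level of 2104 genes with transcripts of at least 6 kb minus that of 2907 genes with transcripts of at most 1.5 kb. The score was 1.93, 2.21 and 1.94 in SPI-77 libraries 1, 2 and 3 and 2.31, 2.94, 2.74 and 2.98 in DMSO libraries 1 to 4. All SPI-77 scores were below all DMSO scores, with DMSO 1 the nearest. SPI-77 libraries averaged 2.03 ± 0.162 (SD, n = 3) and DMSO libraries 2.74 ± 0.306 (SD, n = 4), a difference of -0.72 (exact two-sided permutation p = 0.0571, where the smallest p the 35 splits allow is 0.0286). The SPI-24 libraries scored 2.52 to 2.97. Among genes with transcripts of 2 to 4 kb, the score of 1341 genes spanning at least 50 kb of genome against 1752 spanning at most 10 kb differed by -0.18 (exact two-sided permutation p = 0.0857). The level of GC-rich (at least 55%) minus AT-rich (at most 42% GC) transcripts was 2.80, 2.51 and 2.56 in the SPI-77 libraries and 2.42, 1.58, 1.65 and 0.970 in the DMSO libraries, given as a description. DMSO 1 again lay next to the SPI-77 group. When smooth trends on length and GC were removed within each library, 113 genes were called higher and 237 lower, of which 47 and 219 were among the calls above. The median log2 fold change of the original calls became 1.02 for increases and -1.04 for decreases.

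**Figure D4:**
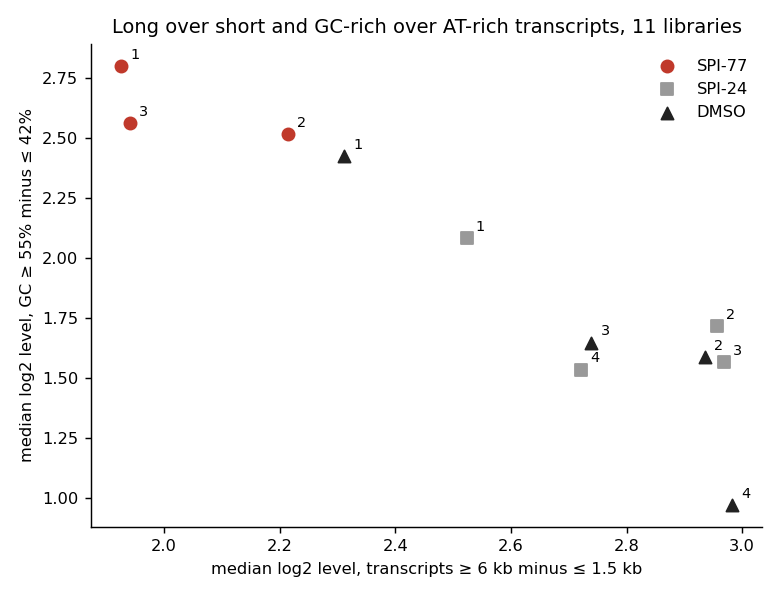
Score of long minus short transcripts (horizontal, difference of median log2 levels) against the score of GC-rich minus AT-rich transcripts (vertical, the same unit) in the SPI-77, SPI-24 and DMSO libraries, numbered by replicate. The 3 SPI-77 libraries sit at the upper left (1.93 to 2.21 on the horizontal axis), next to DMSO 1 (2.31), and the other DMSO libraries lie from 2.74 to 2.98.

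Genes of 40 functional lists were then read against the background of 1.12% called higher and 5.28% called lower. The lists held 1758 tested genes and 199 of the 1073 called genes. Each list is given with its median log2 fold change, to be set beside -0.01 for all genes, and with that median after length and GC trends were removed (the trends removed), to be set beside 0.01 for all genes. As 1.12% of all genes were called higher, lists of these sizes with 0 increases are near the background in that direction.

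Among nuclear-encoded genes of the respiratory chain, 6 complex I, 1 complex III, 1 complex IV and 3 ATP synthase genes were called higher with SPI-77, and 0 were called lower. Of 36 complex I genes, 35 had a positive log2 fold change, 6 were called higher and 0 lower (median 0.73, or 0.32 with the trends removed). Ndufs6, an accessory subunit beside the iron-sulfur clusters, had 2617, 2087 and 2817 normalized counts with SPI-77 and 1402, 1025, 1338 and 1041 with DMSO (log2 fold change 1.06, SE 0.17, adjusted p = 0.0179). Ndufb9 had 7314, 6674 and 9757 with SPI-77 and 4871, 3014, 4195 and 3631 with DMSO (1.01, SE 0.18). Both showed separate groups with DMSO 1 the highest vehicle library. Of 16 ATP synthase genes (median 0.44, or 0.24 with the trends removed), Atp5k, Atp5e and Atp5j2 were called higher, and Atp5k had 6491, 4649 and 7128 with SPI-77 and 3198, 2053, 2946 and 2357 with DMSO (1.21, SE 0.21). Complex III had 1 of 9 genes called higher, Uqcr10 (1.0, SE 0.19), and complex IV 1 of 16, the isoform gene Cox4i2 (1.30, SE 0.34), with medians of 0.61 and 0.70, or 0.22 and 0.28 with the trends removed. No complex II gene was called among 4 (median 0.19, or 0.13 with the trends removed). The 7 mitochondrially encoded genes took the opposite sign in 6 cases (median -0.43, or -0.26 with the trends removed) with 0 called. For example, mt-Nd5 had 16649.7, 19552 and 20885 with SPI-77 and 22857, 39249.9, 46031 and 77815 with DMSO (-1.16, SE 0.37, adjusted p = 0.0526), where DMSO 4 was far above the rest.

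Among genes for making and degrading proteins, 5 cytosolic ribosomal protein genes were called higher and 3 translation initiation factor genes lower, and 0 of the mitochondrial ribosome and the proteasome were called. Of 81 cytosolic ribosomal protein genes, 75 had a positive log2 fold change, 5 were called higher and 0 lower (median 0.70, or 0.27 with the trends removed). Rps14, of the small subunit, had 6079, 6849 and 8284 with SPI-77 and 4715, 3154, 3241 and 2595 with DMSO (1.07, SE 0.20). Ribosomal protein genes have many pseudogene copies, and reads with several positions were dropped, so their levels are uncertain. Of 80 mitochondrial ribosomal protein genes 74 were positive and 0 called (median 0.49, or 0.26 with the trends removed), and of 49 proteasome genes 43 were positive and 0 called (median 0.39, or 0.23 with the trends removed). Psmd4, a ubiquitin receptor of the proteasome, had 5910.0, 5102 and 6324 with SPI-77 and 3834, 2629.6, 3270.4 and 2722 with DMSO, with groups apart and an adjusted p of 0.0179 at 1.87-fold, under the fold limit. Mrpl41 likewise had 1075, 1039.7 and 1178 with SPI-77 and 791, 478, 615 and 634 with DMSO (1.77-fold, adjusted p = 0.0179). The V-ATPase, Sm and LSm, chaperonin and prefoldin and glutathione enzyme lists had positive medians (0.30, 0.48, 0.31 and 0.36, or 0.24, 0.30, 0.31 and 0.14 with the trends removed) and 0 genes called higher. Among 56 translation initiation factor genes 34 had a positive and 22 a negative log2 fold change (median 0.27, or 0.22 with the trends removed), and the 3 called genes (5.36%) were all lower, a share near the background. Eif3a, the largest subunit of the eIF3 scaffold, had 450.2, 468 and 241 with SPI-77 and 409, 1600.4, 1369 and 1332 with DMSO (-1.50, SE 0.42, adjusted p = 0.0352), and DMSO 1 lay within the SPI-77 range. Eif4g2, which supports cap-independent initiation, had 2374, 2699 and 2499 with SPI-77 and 3346, 5976, 5597 and 6614 with DMSO (-1.05, SE 0.21), with groups apart. Gpx6, a glutathione peroxidase, was at 0 in all 3 SPI-77 libraries and at 4.6, 45.4, 6.62 and 41.6 with DMSO. It was among 13 genes called lower that had no read in any SPI-77 library.

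All 3 tested metallothionein genes, whose small cysteine-rich products bind zinc and copper, were called higher. They are neighbours on chromosome 8. Mt1 had 13501, 13131 and 13882 normalized counts with SPI-77 and 8500.3, 5075, 7380.1 and 5015 with DMSO (log2 fold change 1.09, SE 0.18, adjusted p = 0.0179). Mt2 had 3629.6, 4589 and 4350.1 with SPI-77 and 2423, 1401, 2099 and 1427 with DMSO (1.22, SE 0.19). Mt3, the brain form, had 15558, 15549 and 18627 with SPI-77 and 12151, 6141, 9078 and 5368 with DMSO (1.09, SE 0.25, adjusted p = 0.0201). The SPI-77 values of Mt1 lay within a narrow band, the groups did not overlap for any of the 3 genes, and DMSO 2 and DMSO 4 were the lowest libraries. With length and GC trends removed the median of the list was 0.57, in place of 1.09. Metallothionein promoters are known for metal response elements, bound by the zinc sensor Mtf1. The promoters, from 250 bases before to 50 after the start, are shown because all 3 genes were called higher before the trends were removed. Each match of TGCNCNC or its reverse complement is in capitals (RefSeq, GRCm38.p6, plus strand for all 3).
Mt1, chr8:94178839-94179138: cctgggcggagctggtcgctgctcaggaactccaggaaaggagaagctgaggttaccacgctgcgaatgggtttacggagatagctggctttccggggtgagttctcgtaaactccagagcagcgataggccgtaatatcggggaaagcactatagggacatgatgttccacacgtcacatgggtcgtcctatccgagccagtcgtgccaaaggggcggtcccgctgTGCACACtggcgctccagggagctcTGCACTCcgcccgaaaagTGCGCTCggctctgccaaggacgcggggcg
Mt2, chr8:94172368-94172667: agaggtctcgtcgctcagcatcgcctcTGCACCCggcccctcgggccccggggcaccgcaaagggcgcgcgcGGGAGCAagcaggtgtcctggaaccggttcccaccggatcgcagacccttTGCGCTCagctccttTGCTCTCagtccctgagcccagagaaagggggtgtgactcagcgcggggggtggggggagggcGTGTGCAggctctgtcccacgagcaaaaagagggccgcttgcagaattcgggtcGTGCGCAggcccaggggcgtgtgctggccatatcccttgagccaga
Mt3, chr8:94152357-94152656: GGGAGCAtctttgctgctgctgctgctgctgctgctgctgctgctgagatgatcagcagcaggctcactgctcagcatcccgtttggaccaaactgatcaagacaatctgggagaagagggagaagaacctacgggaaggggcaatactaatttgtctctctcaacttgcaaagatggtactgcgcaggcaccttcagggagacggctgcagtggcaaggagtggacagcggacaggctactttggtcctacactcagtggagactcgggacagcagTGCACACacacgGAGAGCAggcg
There were 3 matches in Mt1, 6 in Mt2 and 3 in Mt3. The motif is short. At least 1 match stands in 51.0% of 32851 promoters of this length, at least 3 in 7.10% and at least 5 in 0.697%. A match is a description of letters and not a bound site.

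Genes of the smooth muscle contractile apparatus, found in the walls of arteries and in pericytes, had the highest median of the 40 lists. Of 16 tested genes 15 had a positive log2 fold change and 6 were called higher (median 1.18, or 0.82 with the trends removed). Acta2, smooth muscle alpha-actin (chromosome 19, 34241090 to 34255590), had 891, 819 and 725 with SPI-77 and 361, 206, 344 and 164 with DMSO (1.66, SE 0.25, adjusted p = 0.0179). Myh11, the smooth muscle myosin heavy chain, had 585, 638 and 502 with SPI-77 and 310.2, 152, 255 and 95 with DMSO (1.63, SE 0.34). Myl9, the regulatory myosin light chain, had 1095, 905 and 1049.6 with SPI-77 and 608, 399.6, 535 and 307 with DMSO (1.18, SE 0.21). In all 3 the groups were apart and DMSO 4 was the lowest library. Tagln, Des and Tpm2 were the other calls. Acta2, Tagln and Myh11 are also 3 of the 5 mural cell markers, so that sum is no separate reading. The other 2, Rgs5 and Pdgfrb, were not called, at log2 fold changes of 0.07 and 0.04. Many smooth muscle genes hold a CArG box, the site of serum response factor. Of 14 list genes with a promoter entry, 3 had a match within the window, Cnn2, Myl6 and Myl9, against 1.63% of all promoters, and only Myl9 of these was called. Its promoter is shown with the match, which begins at position -161 from the start, in capitals (RefSeq, GRCm38.p6, plus strand).
Myl9, chr2:156775214-156775513: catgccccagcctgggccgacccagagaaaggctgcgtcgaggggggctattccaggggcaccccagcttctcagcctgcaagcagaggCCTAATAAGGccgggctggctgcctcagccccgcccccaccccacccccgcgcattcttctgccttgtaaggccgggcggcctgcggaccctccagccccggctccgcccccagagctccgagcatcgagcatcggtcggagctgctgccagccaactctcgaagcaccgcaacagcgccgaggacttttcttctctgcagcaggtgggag
Of 17 genes of matrix crosslinking and elastic fibres, Eln, Loxl1 and Mfap4 were called higher (median 0.33, or 0.31 with the trends removed). Elastin, Eln, had 439.6, 588 and 566 with SPI-77 and 291, 171, 303 and 117 with DMSO (1.36, SE 0.30, adjusted p = 0.0188), where DMSO 2 and DMSO 4 were the low libraries. The meningeal fibroblast marker sum was higher in the same libraries, and its part was not tested. Of 54 collagen and laminin genes 1 was higher and 2 lower (5.56% called, median -0.21, or -0.12 with the trends removed). Col6a1, a chain of microfibrillar collagen VI, had 488, 451 and 257 with SPI-77 and 1383, 3328, 1155 and 2784 with DMSO (-2.35, SE 0.70, adjusted p = 0.0424), and its partner Col6a2 was called lower too (-1.25, SE 0.37).

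Of the complex the compound was selected on, neither Supt5 nor Supt4a nor Polr2a passed both limits. Supt5, which encodes Spt5, had 3365, 3457 and 3229 with SPI-77 and 3379, 3076, 2485 and 2479 with DMSO, with overlapping groups (log2 fold change 0.24, SE 0.13, 95% interval -0.05 to 0.53, adjusted p = 0.211). Supt4a, for the DSIF partner Spt4, had 594, 545 and 591 with SPI-77 and 447, 336, 418 and 354 with DMSO, groups apart at 1.49-fold and an adjusted p of 0.0362, under the fold limit. Polr2a, the largest polymerase subunit, had 1377, 1743 and 1628 with SPI-77 and 1653, 1612, 1667 and 1143 with DMSO, with overlapping groups (0.07, SE 0.16, adjusted p = 0.790). Mouse Htt, at 1977, 2041 and 1965 with SPI-77 and 1990.1, 1976, 1846 and 1903 with DMSO, also overlapped between the groups (0.05, SE 0.14, 95% interval -0.25 to 0.34). With the trends removed, limma gave 0.13 for Supt4a (adjusted p = 0.573) and 0.36 for Htt (adjusted p = 0.102). Supt5 stood at 0.11 (adjusted p = 0.536) and Polr2a at 0.23 (adjusted p = 0.340) in that fit. Of 13 RNA polymerase II subunit genes 11 were positive and 0 were called (median 0.64, or 0.28 with the trends removed). Of 35 elongation and pausing factors 0 were higher and 2 (5.71%) lower, a share near the background of 5.28% (median 0.13, or 0.14 with the trends removed). Aff4, the scaffold of the super elongation complex, had 571, 625 and 407 with SPI-77 and 722, 1706, 1417 and 1684 with DMSO (-1.31, SE 0.27, adjusted p = 0.0179). Ell2 had 59.9, 71.5 and 62.5 with SPI-77 and 70.1, 226, 234 and 232 with DMSO (-1.40, SE 0.37, adjusted p = 0.0279), and DMSO 1 sat just inside the SPI-77 range. Of 45 Mediator and Integrator genes 3 (6.67%), also near the background, were called lower, Ints2 (-2.09, SE 0.40), Med13l (-1.69, SE 0.33) and Med13 (-1.01, SE 0.29), around a median of 0.01, or 0.09 with the trends removed, which changed sign under TMM scaling and without SPI-77 3.

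Shares called lower in the zinc finger and chromatin lists exceeded the background of 5.28%, while their medians with the trends removed lay closer to 0. Of 352 Zfp genes, many of which encode DNA-binding repressors of the KRAB type, 44 were called lower and 264 had a negative log2 fold change (median -0.38, or -0.10 with the trends removed). The 1 called higher was Zfp296. Zfp146 had 144, 180.4 and 102 with SPI-77 and 228, 479, 347 and 446 with DMSO (-1.38, SE 0.27). Zfp51, at a lower level, had 7.99, 7.70 and 3.57 with SPI-77 and 44.8, 28.7, 39.7 and 95 with DMSO (-2.76, SE 0.52). Zinc finger genes are close copies of each other, so their counts are uncertain where reads match several. Of 63 Zbtb, Zscan and Zkscan genes 10 were lower and 0 higher (median -0.23, or -0.21 with the trends removed). Zbtb38, which binds methylated DNA, had 135, 133 and 116 with SPI-77 and 191, 503, 371 and 458 with DMSO (-1.48, SE 0.29). In each of these the groups were apart. Among 27 lysine methyltransferase and demethylase genes 5 were lower, Kdm6a, Kdm1b, Kdm4c, Kmt2c and Kmt2e, and 0 higher. Kmt2e had 388, 397 and 345 with SPI-77 and 534, 1166, 858 and 993 with DMSO (-1.18, SE 0.21). The median of this list was -0.25, or -0.12 with the trends removed. Of 40 chromatin remodeler genes (median -0.26, or -0.03 with the trends removed), Atrx, Arid4a, Arid4b and Smarca1 were lower and Arid5a higher. Atrx, the X-linked remodeler of repeats and telomeres, had 104, 198 and 114 with SPI-77 and 271, 793, 516 and 1042 with DMSO (-2.12, SE 0.41). Arid4b, a subunit of a histone deacetylase complex, had 28.0, 71.5 and 44.6 with SPI-77 and 94.2, 334, 246 and 421 with DMSO (-2.39, SE 0.46). DMSO 2 and DMSO 4 were again the highest libraries of both genes.

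Of 31 SR and hnRNP genes, which encode splicing regulators, 26 had a negative log2 fold change and Hnrnph1, Hnrnph2 and Srsf12 were called lower (median -0.31, or -0.27 with the trends removed). Hnrnph2 had 229, 219 and 127 with SPI-77 and 241, 737, 610.0 and 674 with DMSO (-1.48, SE 0.34), where DMSO 1 stood close above the SPI-77 values. Hnrnph1, its close paralog, had 902, 999 and 503 with SPI-77 and 791, 2291, 2121 and 2479.7 with DMSO (-1.19, SE 0.36, adjusted p = 0.0418), and there the groups overlapped through DMSO 1. Of 21 nucleoporin genes (median -0.20, or -0.06 with the trends removed) Nup153 and Nup160 were lower. Nup153, of the nuclear basket, had 135, 113 and 83.9 with SPI-77 and 175, 329, 318 and 364 with DMSO (-1.39, SE 0.30). Ranbp2, described above, was not on that list.

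Transcription factors of forebrain regions moved in both directions and by more than most genes. Of 64 homeobox genes 3 were higher and 11 lower (21.9% called, median -0.10, or -0.10 with the trends removed). Lhx5 had 99.9, 71.5 and 46.4 with SPI-77 and 12.6, 6.49, 14.3 and 6.08 with DMSO, a 6.85-fold increase (2.78, SE 0.52, adjusted p = 0.0179). Nkx2-1, a regulator of ventral forebrain progenitors and interneurons, had 6.66, 6.60 and 14.3 with SPI-77 and 74.7, 111, 179 and 95 with DMSO (-3.52, SE 0.85, adjusted p = 0.0221). The increases were Lhx5, Gbx2 and Irx1, and the decreases included Isl1, Lhx6, Lhx8, Meis2, Dlx2, Gbx1, Pbx3 and Pou3f1. Of 24 other forebrain transcription factors (median 0.06, or 0.39 with the trends removed), Gata3 and Sox14 were higher and Rarb, Ikzf1 and Sp8 lower. Gata3, a zinc finger factor of midbrain and diencephalic inhibitory neurons, had 189, 159.5 and 99.96 with SPI-77 and 3.45, 3.71, 3.31 and 0 with DMSO (5.56, SE 1.24, adjusted p = 0.0190), where no DMSO library held more than 4 reads, so that the fitted value depends on the pseudocount. Rarb, a retinoic acid receptor of striatal neurons, had 7.99, 11 and 3.57 with SPI-77 and 36.8, 235, 69.5 and 117 with DMSO (-3.55, SE 0.68, adjusted p = 0.0179). The spread of Rarb within DMSO was wide, with DMSO 2 highest and DMSO 1 lowest. Against SPI-24, Rarb was called lower (-2.43, adjusted p = 0.0489). Lhx5 (1.52, adjusted p = 0.0805), Nkx2-1 (-0.81, adjusted p = 0.550) and Gata3 (4.31, adjusted p = 0.0521) were not called against SPI-24. SPI-24 3 held 103 normalized counts of Gata3. The medium spiny, cholinergic, thalamic and cortical marker sums given above differed or shifted between the same libraries, and their part in these changes was not tested.

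Among channel, receptor and cyclic nucleotide genes, Kcnf1, Scn4b, Gria3, Gabrg1 and Pde4b were among those called lower. Of 86 potassium channel genes 7 (8.14% called) were lower (median -0.09, or -0.09 with the trends removed) and of 36 sodium and calcium channel genes 4 (11.1%) were (median -0.17, or -0.00 with the trends removed), against 5.28% of all genes. Kcnf1, a silent modulatory subunit, had 364, 243 and 139 with SPI-77 and 415, 654, 561 and 633 with DMSO (-1.27, SE 0.28). Scn4b, a sodium channel beta subunit abundant in the striatum, had 1678, 1737 and 2415 with SPI-77 and 3363, 12710.5, 5364 and 7144 with DMSO (-1.73, SE 0.49, adjusted p = 0.0362). Scn2a varied little within SPI-77, at 581, 578 and 569, against 815, 1451, 823 and 2238 with DMSO (-1.08, SE 0.30). The groups did not overlap for any of the 3. Of 26 glutamate receptor genes, Gria2, Gria3, Grik3, Grm3, Grm5 and Grm7 were lower, while 13 of the 26 had a positive and 13 a negative log2 fold change (median -0.00, or -0.03 with the trends removed). Gria3, an X-linked AMPA receptor subunit, had 324, 474 and 402 with SPI-77 and 619, 1313, 966 and 2019 with DMSO (-1.50, SE 0.32). Grm3, a metabotropic receptor of astrocytes and neurons, had 218, 281 and 237 with SPI-77 and 368, 667, 499 and 569 with DMSO (-1.07, SE 0.22). Both had their lowest vehicle value in DMSO 1. Of 17 GABA receptor genes Gabrb2, Gabrg1 and Gabrq were lower (median -0.61, or -0.05 with the trends removed). Gabrg1 had 62.6, 68.2 and 62.5 with SPI-77 and 96.5, 174, 267 and 369 with DMSO (-1.63, SE 0.40). Of 29 phosphodiesterase and adenylyl cyclase genes Pde4b, Pde4d, Pde7b, Pde8b and Pde10a were lower (median -0.70, or -0.13 with the trends removed). Pde4b, which degrades cyclic AMP, had 522, 550.1 and 632 with SPI-77 and 797, 1533, 1204 and 1539 with DMSO (-1.11, SE 0.22). Pde10a is also a medium spiny neuron marker. Of 19 RGS genes 1 (5.26%), Rgs20, was called lower (-1.48, SE 0.40), a share at the background (median -0.07, or 0.05 with the trends removed).

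Clustered protocadherins, cell surface proteins that give neurons a self-recognition code, had negative log2 fold changes throughout. All 43 tested genes (of 54 in the table) had a negative log2 fold change, 11 were called lower, and the median was -1.23, or -1.17 with length and GC trends removed, so this median was little changed by that step. Pcdhb17 had 21.3, 22 and 21.4 with SPI-77 and 39.1, 88.1, 98.2 and 106 with DMSO (-1.80, SE 0.39, adjusted p = 0.0181). Pcdhac2 had 13.3, 16.5 and 3.57 with SPI-77 and 26.4, 141, 47.4 and 102 with DMSO (-2.67, SE 0.62, adjusted p = 0.0205). The SPI-77 values of Pcdhb17 were nearly equal, and every SPI-77 library was below DMSO 1 in both genes. Against SPI-24 the list median was -0.97, and SPI-24 against DMSO gave -0.36. The gamma genes share their last exons and the beta genes are close copies, so reads cannot always be assigned to 1 gene. Of 67 axon guidance genes 9 were lower and 0 higher, around a median of 0.03, or -0.01 with the trends removed, which changed sign under 6 of 25 alternatives. Sema6d had 212, 378 and 175 with SPI-77 and 442, 727, 837 and 639 with DMSO (-1.41, SE 0.27). Robo1, a Slit receptor, had 81.2, 122 and 83.9 with SPI-77 and 152, 323, 260.3 and 310.2 with DMSO (-1.40, SE 0.29). Groups were apart in both.

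Of 29 genes of the PI3K and mTOR pathway 7 (24.1%) were lower, namely Irs1, Irs4, Pik3c2a, Pik3c2b, Pdpk1, Rictor and Sgk3. The median was -0.19, or -0.11 with the trends removed. Sgk3, a kinase downstream of PI3K, had 26.6, 31.9 and 28.6 with SPI-77 and 73.5, 119, 121 and 176 with DMSO (-1.98, SE 0.33). Pik3c2a, a class II lipid kinase, had 4.00, 1.10 and 3.57 with SPI-77 and 4.6, 121, 49.6 and 86.1 with DMSO (-3.52, SE 0.85). DMSO 1 was barely above the SPI-77 values of Pik3c2a, and the other DMSO libraries were far above. Of 79 ubiquitin protease and Kelch-like adaptor genes 11 (13.9%) were lower (median -0.30, or 0.04 with the trends removed). Klhl24 had 173, 174 and 118 with SPI-77 and 245, 459, 376 and 444 with DMSO (-1.27, SE 0.24), with groups apart. Of 90 centrosome and cilium genes 72 had a negative log2 fold change and 5 (5.56%) were lower, near the background (median -0.45, or -0.17 with the trends removed). Cep126 had 18.6, 47.3 and 30.4 with SPI-77 and 48.3, 212, 173 and 233 with DMSO (-2.21, SE 0.49). Ependymal marker sums, given above, were lower in the same libraries. The plot of gene lists sets all 40 medians beside each other.

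**Figure D5:**
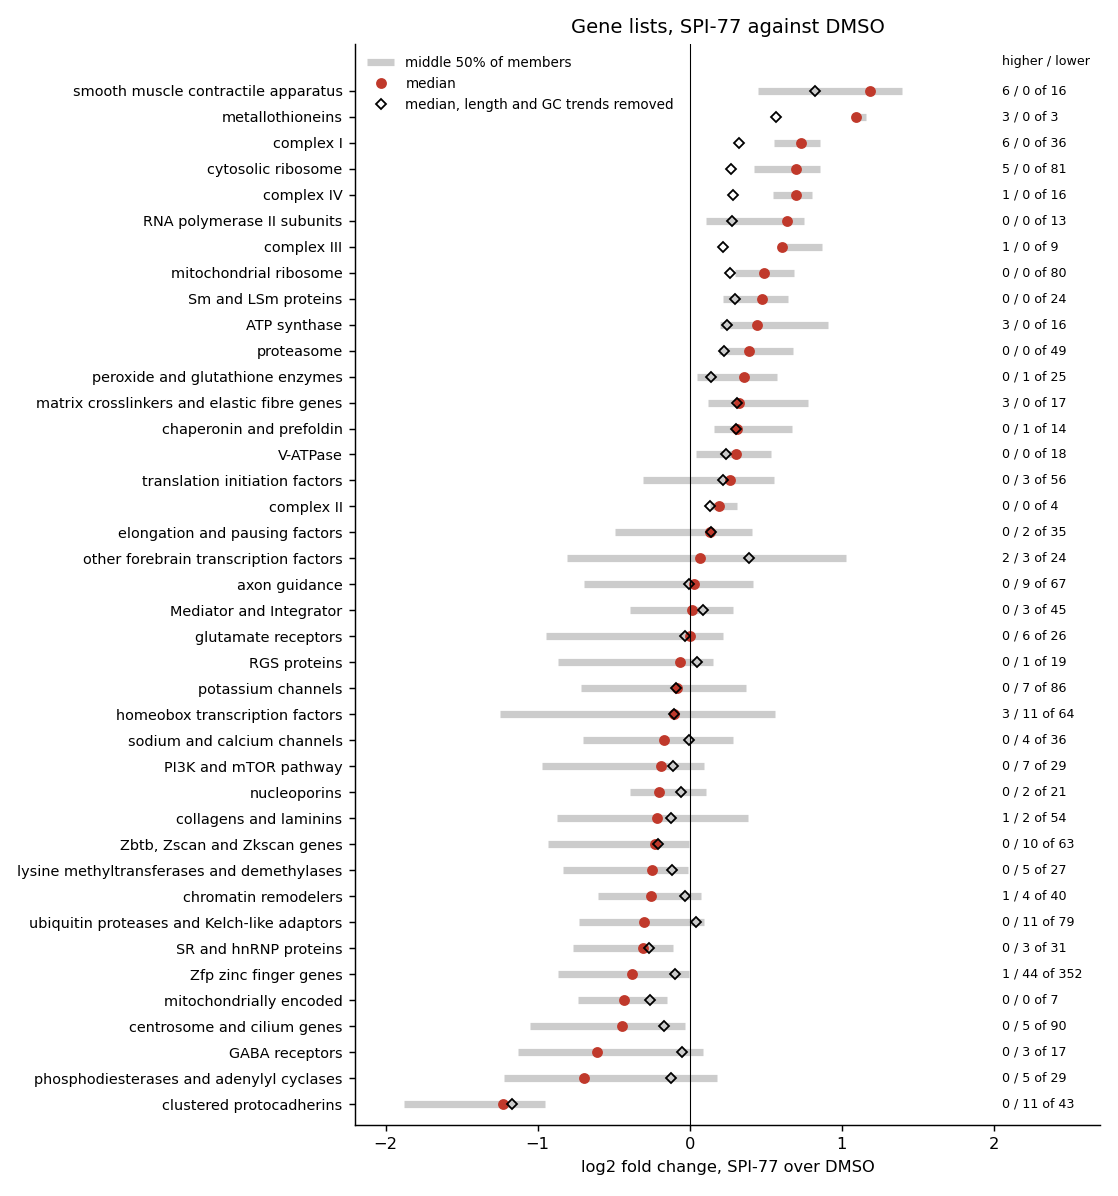
Median log2 fold change of SPI-77 over DMSO for each of the 40 gene lists (filled circles), the middle 50% of members (grey bars) and the median after trends on transcript length and GC were removed (open diamonds), with the counts called higher and lower at the right. Smooth muscle genes (1.18) and metallothioneins (1.09) lie furthest right and clustered protocadherins (-1.23) furthest left, and the open diamonds of most other lists lie nearer to 0.

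The X chromosome held several of the firmest decreases. Of 555 X-linked genes tested, 80 (14.4%) were called lower and 5 higher, at a median of -0.35 on the log2 scale. Of 16170 autosomal genes 805 (4.98%) were lower and 183 higher, at a median of -0.00. X-linked transcripts were poorer in GC, and with length and GC trends removed the X-linked median was -0.14. Because DMSO 1 and DMSO 3 carried Xist and no SPI-77 library did, the comparison was also read in the libraries without Xist, an alternative chosen after the data were seen. There the X-linked median was -0.43 and the autosomal median -0.01. That reading kept the same 3 SPI-77 libraries, with DMSO 2 and DMSO 4 as the only vehicle libraries. It dropped DMSO 1, the vehicle library nearest to SPI-77, so it is not an independent check. With a sex term from Xist in the fit of all libraries, the X-linked median was -0.37 and the autosomal median -0.01. The part of sex as a cause was not tested. Kdm6a, which is known to escape silencing on the inactive X, stood at 236 and 303 in DMSO 2 and DMSO 4, without Xist, and at 108 and 265 in DMSO 1 and DMSO 3, with Xist.

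SPI-77 was last set against SPI-24 to see what differed between compounds. Against SPI-24, 57 genes (0.340%) were called higher and 411 (2.45%) lower, 468 (2.79%) in all. The 2 contrasts share the SPI-77 libraries, and 379 genes were called in both with the same sign. Of the genes called lower against DMSO, all 885 also had a negative log2 fold change against SPI-24, and 186 of the 188 called higher had a positive one, values that share the SPI-77 libraries and so are not independent. Kdm6a differed from SPI-24 by -2.74 on the log2 scale (adjusted p = 0.0372) and Lcat by 1.09 (adjusted p = 0.0388). Acta2 differed by 0.81 (adjusted p = 0.0632) and Mt1 by 0.87 (adjusted p = 0.0372). The list medians against SPI-24 were 0.51 for smooth muscle genes, 0.64 for complex I and 0.72 for the cytosolic ribosome, and SPI-24 against DMSO gave 0.33, 0.11 and -0.08. For SPI-24 against DMSO limma called 0 genes, with 625 at an unadjusted p below 0.05, and edgeR and DESeq2 also called 0, with 524 and 834. Doses differed between the compounds where stated, and SPI-24 4 stood apart with 16263 genes detected at 26.0 M reads. Without SPI-24 4 limma called 0 genes against SPI-24, likewise without SPI-24 2, SPI-24 3, DMSO 3, SPI-77 1 or SPI-77 3 (3336 to 4805 genes at an unadjusted p below 0.05), and it called 3 without SPI-77 2, 302 without DMSO 2 and 804 without DMSO 1.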

How the data were processed

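Poly(A) RNA of striatal punches was sequenced with a stranded kit in 11 libraries, of which 3 SPI-77 and 4 DMSO libraries were compared. From the submitters' processing notes and the paper's methods, the authors trimmed reads with cutadapt, aligned them to GRCm38 with STAR, dropped reads with several positions, counted reads per gene with HTSeq and scaled them with DESeq2. No versions were given in the sources used here. These deposited normalized counts are a signal, reads divided by a size factor, for 20957 genes. All values (100% in each library, within 0.1) were whole multiples of 1 step, which gave back the reads, 10.2 to 33.8 M per library. Its fold change, p-value and adjusted p-value columns were not used. A GENCODE annotation of GRCm38 matched 99.9% of identifiers and gave coordinates and the transcript length and GC content (in percent).

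The log2 of the normalized count plus 1 was analysed, so changes of low genes are understated. The 16768 genes that reached 10 in 3 or more libraries were kept. Groups were compared with limma 3.58.1 in R 4.3.3 (trend and robust variance, all 11 libraries, group as the only term, two-sided). Genes called passed a Benjamini-Hochberg adjusted p below 0.05 over all genes tested and a 2-fold change. The fit was also run on simulated counts. These had independent libraries with the same spread for all genes, without the shared differences between libraries seen here. They therefore do not bear on how firm the calls are. Alternatives were the count tests of edgeR 4.0.16 and DESeq2 1.42.0 on the recovered reads, quantile and TMM scaling, other filters and pseudocounts, a sex term from Xist, a replicate block, removal of length and GC trends (loess, span 0.3) and leaving out libraries. P-values measure the spread between these libraries. Libraries of the same group differed beyond counting noise in every pair, with a lowest chi-square per gene of 14.9 within SPI-77.

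Named genes are the 12 with the smallest p in each direction among called genes with a mean of at least 100, up to 3 called members of each list with the smallest p, up to 2 members as values in lists with no call, and Supt5, Supt4a, Polr2a and Htt. Further called members are named without values to complete the counts. The members and lists were chosen with earlier results of these data known. Lists are described by counts and medians with no set test. Promoters came from RefSeq (GRCm38.p6). A few genes and 1 list are not reported here.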

Additional observations from a re-analysis of the deposited data

Results flagged for a closer look

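Of 124 values tested over the 4 DMSO libraries, 6 had a library far from the other 3 relative to the range of the group, and chance gives about 1 in 20. DMSO 1 stood apart at 83.9 normalized counts of Rpl38, above the other vehicle libraries and towards the SPI-77 values, and at 70.1 of Ell2 and 64.3 of Gabrq, below the others and towards the SPI-77 values. DMSO 4 stood apart at 1143 normalized counts of Polr2a, below the rest, at 0 of Gata3, and by its depth of 33.8 M reads. Causes were not tested.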

How the results depend on the processing

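Counts of called genes moved with several choices. Genes called higher (188) became 336 under quantile scaling, 308 with a sex term, 113 with length and GC trends removed and 909 in the libraries without Xist, and 0 to 396 when 1 library was left out. Genes called lower (885) became 477 with the length trend removed, 237 with length and GC trends removed, 460 without the libraries numbered 4 and 2020 in the libraries without Xist, and 0 to 1471 when 1 library was left out. Genes called against SPI-24 (468) became 987 with DESeq2, 1146 with a sex term and 913 in the libraries without Xist. With limma that count was 0 under quantile scaling, without the libraries numbered 4, with the length trend removed and with both trends removed (4586, 4807, 4073 and 3480 genes at an unadjusted p below 0.05), and 0 to 804 when 1 library was left out. Removal of both trends and the restriction to libraries without Xist were chosen after the data were seen, and the causes of these changes were not tested. The restriction left DMSO 2, DMSO 4 and SPI-24 3 beside the 3 SPI-77 libraries. The other alternatives kept each count within 1.5 times. edgeR called 154 higher and 954 lower, of which 149 and 821 were among the calls above, and DESeq2 called 265 and 1254 (177 and 873). The SPI-77 minus DMSO difference in the long minus short transcript score stayed between -0.64 and -0.86 when 1 library was left out. Its exact p was then the smallest each such design allows (0.0667 or 0.10). Same-numbered libraries did not deviate together (correlations of -0.16 to 0.21), so the numbers were not taken to pair animals. With the replicate block 138 genes were called higher, 734 lower and 420 against SPI-24. The median of 28 of the 40 lists kept its sign under all 25 alternatives. Of 103 named called genes, 57 lost the call with length and GC trends removed, 36 with the length trend removed, 32 without the libraries numbered 4, 19 under quantile scaling, 16 with the replicate block, and all 103 without SPI-77 1, SPI-77 3, DMSO 2 or DMSO 4, while none reversed its direction. Depth limits low genes, as 75 of the genes called lower had no read in at least 1 SPI-77 library.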
